A study of Mus musculus with 6 samples.

Results

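Potassium channel genes were compared between cells with high and with no Hes1 reporter signal, sorted from mouse small-cell lung cancer. Every gene whose symbol begins with Kcn, followed by a family letter and a number, was taken from the array rows that name a single gene. This gave 89 of the 22179 genes measured, namely 87 genes for channel subunits and 2 long non-coding RNA genes (Kcnq1ot1 and Kcnd3os), and no member was left out for a low level. The GFP-high group and the GFP-negative group held 3 arrays each. Animals of both groups carried conditional alleles of Rb, p53 and p130, deleted in the lung by intratracheal Adeno-Cre, together with an allele that reports Hes1 as green fluorescence. Tumours were collected 5 to 6 months later, pooled from 3 mice and sorted. The labels call the arrays of each group biological replicates. The labels do not state the strain, the age at Cre delivery, or whether each sample is its own pool. The p-values therefore reflect only the spread among these arrays, and how far that is a spread between separate pools is not known. All values are log2 expression made with RMA, which summarises the probes of a gene after background correction, and a fold change is GFP-high minus GFP-negative on that scale ± its standard error.

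Potassium channels let potassium leave or enter a cell down its gradient and so set the membrane potential. Voltage-gated, calcium-activated and G protein-gated types end or damp electrical firing in neurons and neuroendocrine cells. In secretory epithelia, other types on the basolateral membrane keep the potential negative and so sustain the secretion of chloride.

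The sort and the cell types were read from marker genes. Hes1, the reporter's own gene, averaged 10.40 ± 0.11 in GFP-high cells, against 6.85 ± 0.18 in GFP-negative cells (SD, n = 3 each). All 12 measured neuroendocrine markers were lower in GFP-high cells, and their summed linear signal per array ran from 2322 to 4853, against 14308 to 15978 in GFP-negative cells. GFP-high replicate 3 was the nearest of its group to the GFP-negative arrays on that list, with a median difference of -1.72 from their mean, against -2.49 and -2.82. Higher in GFP-high cells were 9 of 10 club and secretory markers (median log2 fold change 4.48), 8 of 10 alveolar type 2 markers (3.06) and 8 of 8 alveolar type 1 markers (1.83). The summed signals of these 3 lists were 44583 to 49354, 15071 to 18170 and 7392 to 8336 in GFP-high cells, against 4497 to 7383, 1544 to 1862 and 1716 to 2234 in GFP-negative cells. Of the markers of other cells, 1 of 7 ciliated, 1 of 8 endothelial, 1 of 7 fibroblast and 1 of 8 smooth muscle and pericyte markers were higher. Lower were 2 of the ciliated and 1 each of the endothelial, fibroblast, smooth muscle and pan-leukocyte markers. None of the 6 T cell, 7 macrophage and 4 Schwann and glial markers passed. The part of these differences in the values below was not tested, and in sorted bulk cells fewer cells of a type and less RNA per cell cannot be told apart.

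Most potassium channel genes that changed were lower in GFP-high cells. At a limma adjusted p under 0.05, 36 of the 89 were lower (40.4%) and 8 were higher (8.99%), while 45 did not pass. Over all genes tested 17.0% were lower and 13.0% higher. By at least 1 on the log2 scale, 26 fell and 2 rose, and the same rule took 6.02% of all genes as lower and 5.63% as higher. The groups did not overlap for 52 members (58.4%), against 44.6% of all genes. In 40 of them GFP-high was below and in 12 above, against 24.6% and 20.0% of all genes. The median log2 fold change was -0.20 for the members and 0.01 for all genes. With the dimmest 30% of genes left out, 73 members remained, of which 37 were lower (50.7%) and 7 higher (9.59%), against 25.9% and 18.2% of the genes that remained, or 44.1% called in all. Without GFP-high replicate 3 the counts were 36 lower and 8 higher, as with it. Over all 22179 genes they were 3382 lower and 2734 higher without that array, against 3773 and 2888 with it.

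**Figure D1:**
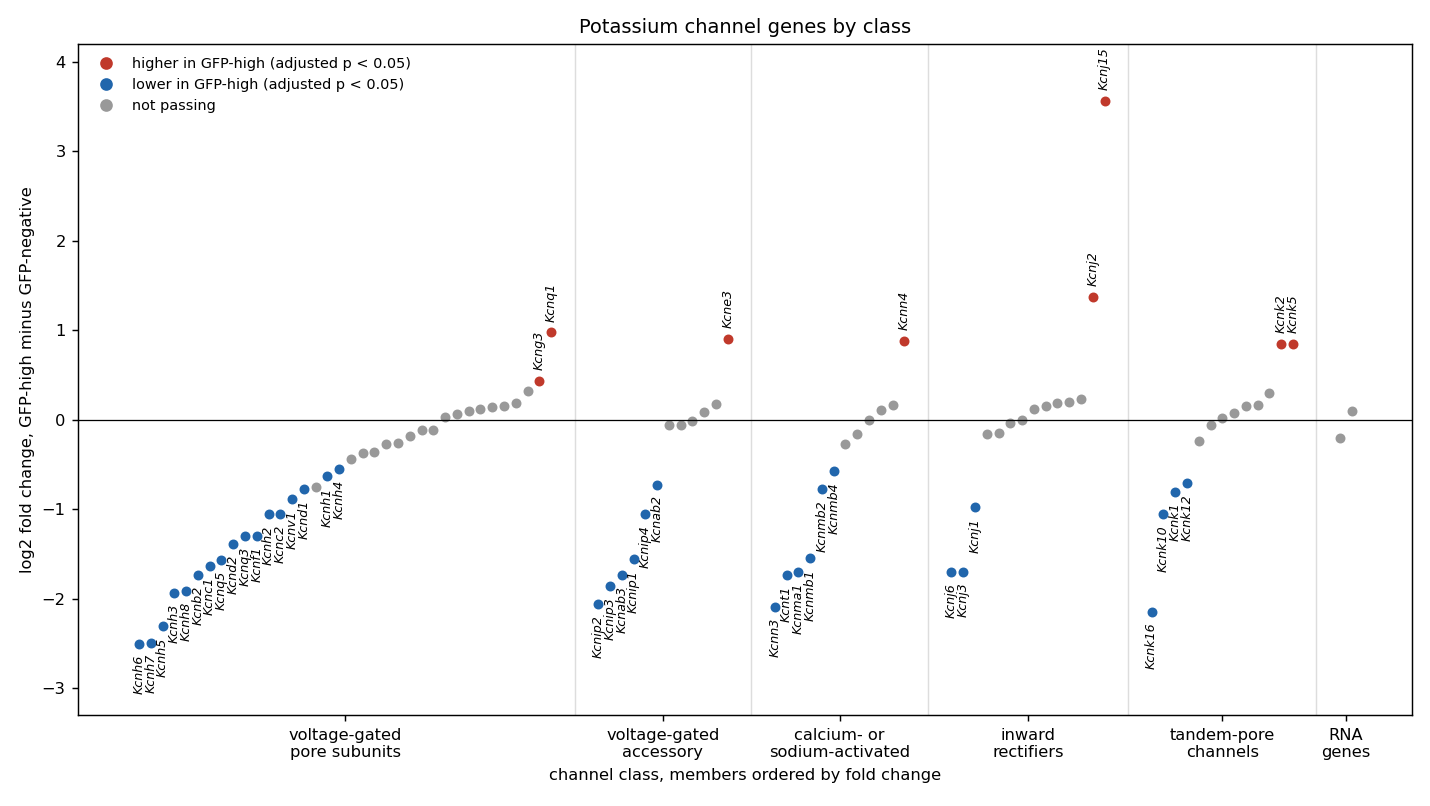
Log2 fold change (GFP-high minus GFP-negative) of each of the 89 potassium channel genes, 1 point per gene, grouped by channel class along the horizontal axis and ordered by size within a class. Red points are the 8 higher and blue points the 36 lower genes at an adjusted p under 0.05; the range runs from -2.50 for Kcnh6 to 3.56 for Kcnj15.

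The promoters of the members with the largest fall, Kcnh6, and the largest rise, Kcnj15, are shown because they mark the extremes of the family. Both are the 250 bases before the gene's start on the plus strand, from RefSeq on GRCm38.p6, at chr16:95257308-95257557 for Kcnj15 and chr11:106007898-106008147 for Kcnh6. Capitals mark the letters CAGCACC and GGACAGC, the left and right parts of the RE1 element that the repressor REST is known to bind.
Kcnj15: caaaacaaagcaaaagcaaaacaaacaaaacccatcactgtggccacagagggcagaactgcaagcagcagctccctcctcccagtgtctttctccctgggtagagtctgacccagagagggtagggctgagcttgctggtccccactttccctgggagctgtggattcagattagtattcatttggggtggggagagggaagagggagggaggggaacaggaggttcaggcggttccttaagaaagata
Kcnh6: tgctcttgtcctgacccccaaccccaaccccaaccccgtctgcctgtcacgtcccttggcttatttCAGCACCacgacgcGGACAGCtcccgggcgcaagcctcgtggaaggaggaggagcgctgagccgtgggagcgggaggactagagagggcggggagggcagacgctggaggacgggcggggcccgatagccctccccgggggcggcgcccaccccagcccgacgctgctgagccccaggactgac

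The Kcnh6 window holds the letters of both RE1 parts in order on 1 strand. They begin 184 and 170 bases before the start, with 7 bases between them. Over all 32851 RefSeq promoter windows (250 bases before to 50 after a start, both strands searched), 20 hold both parts in that order with at most 10 bases between, which is 0.0609%, and Kcnh6 is the 1 member among them. Of these 20, 3 have a gap of 7 bases as in Kcnh6 and 7 a gap of 2. Kcnh6 was shown for its fall, and whether REST binds its promoter at this gap was not tested. Rest itself was at 7.24, 6.96 and 7.55 in GFP-high cells, against 5.25, 5.41 and 5.60 in GFP-negative cells (1.83 ± 0.17, adjusted p = 8.16e-05), with no overlap between the groups.

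Single motif parts were also counted over the windows of members, of which 69 had an entry. Windows of 1 gene can overlap and are not independent. The left RE1 letters CAGCACC stood in 14.3% and the right letters GGACAGC in 11.9% of the 42 windows of 29 lower members, against 7.14% and 6.56% of all windows. Among the 11 windows of 7 higher members each part stood in 9.09%. In the 41 windows of the 33 members that did not pass the left letters stood in 7.32% and the right letters in 14.6%, the second of these above its share in the lower members. The letters TGGGAA, the core bound by the Notch effector RBPJ, were in 18.2% of the windows of higher members, 19.0% of those of lower members and 25.6% of all windows. The N-box CACNAG, bound by Hes1, was in 63.6%, 52.4% and 42.5% of the same sets. GGAATG, the core bound by the TEAD partners of YAP, was in 18.2%, 11.9% and 14.7%. In windows of the members that did not pass, the RBPJ core stood in 36.6%, the N-box in 36.6% and the TEAD core in 14.6%. A match describes these letters and does not show binding, and the motifs were chosen with the change of Rest known.

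Voltage-gated pore subunits open when the membrane depolarises. Of the 36 measured, 17 were lower (47.2%), 2 higher (5.56%) and 17 did not pass (median log2 fold change -0.49). Over all genes 17.0% were lower and 13.0% higher. The ether-à-go-go family, encoded by the Kcnh genes, fell as a whole, with all 8 measured members lower. It comprises the eag channels Kcnh1 and Kcnh5, the erg channels Kcnh2, Kcnh6 and Kcnh7, which repolarise excitable cells slowly, and the elk channels Kcnh3, Kcnh4 and Kcnh8.

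Kcnh6, for the channel erg2, was at 7.15, 7.10 and 8.09 in GFP-high cells, against 10.06, 10.12 and 9.67 in GFP-negative cells, and fell 5.66-fold (-2.50 ± 0.26, adjusted p = 0.000164). Kcnh7, for erg3, was at 5.95, 5.29 and 6.21 in GFP-high cells, against 8.29, 8.30 and 8.33 in GFP-negative cells (-2.49 ± 0.21, adjusted p = 5.61e-05). In both genes the groups did not overlap, and GFP-high replicate 3 was the highest of its group. Kcnh5, for eag2, was at 5.20, 4.85 and 5.74 in GFP-high cells, against 7.24, 6.80 and 8.66 in GFP-negative cells (-2.31 ± 0.44, adjusted p = 0.00383). GFP-negative replicate 3 stood well above the other GFP-negative arrays in that gene. Kcnh3, for elk2, was at 6.87, 6.27 and 6.99 in GFP-high cells, against 8.75, 8.55 and 8.64 in GFP-negative cells (-1.94 ± 0.19). Kcnh8, for elk1, was at 5.52, 5.70 and 6.02 in GFP-high cells, against 7.76, 7.75 and 7.45 in GFP-negative cells (-1.91 ± 0.16). Kcnh3 and Kcnh8 kept a gap of more than 1 between the groups. Kcnh2, the erg1 gene whose human counterpart hERG repolarises the heart, fell less (-1.06 ± 0.14, adjusted p = 0.000633). Kcnh1 (-0.63 ± 0.18) and Kcnh4 (-0.55 ± 0.15) were the smallest falls of the family. The call for Kcnh1 was lost without GFP-high replicate 1 or 2 or GFP-negative replicate 2 (adjusted p 0.0716 to 0.0993). The call for Kcnh4 was lost without any GFP-high array or GFP-negative replicate 3 (0.0544 to 0.0630).

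The called genes of the Shab, Shaw and KCNQ families were lower, apart from Kcnq1. Kcnb2, for a delayed rectifier of the Shab type, was at 4.87, 5.08 and 5.55 in GFP-high cells, against 6.73, 6.89 and 7.09 in GFP-negative cells (-1.73 ± 0.18, adjusted p = 0.000177). Kcnc1 (-1.63 ± 0.20) and Kcnc2 (-1.05 ± 0.21), for the Shaw type channels of fast-firing neurons, also fell, and Kcnc4 did not pass (-0.36 ± 0.14, adjusted p = 0.0929). Of the genes for the M-current, which holds neurons below firing threshold, Kcnq5 fell by 1.57 ± 0.18 and Kcnq3 by 1.30 ± 0.29 (log2). A second, dimmer row for Kcnq5 did not pass (-0.24), and the mean of both rows fell by 0.90. Kcnq1, whose channel works in the heart and in epithelia, was at 8.99, 9.23 and 8.75 in GFP-high cells, against 7.92, 8.24 and 7.87 in GFP-negative cells (0.98 ± 0.16, adjusted p = 0.00177). Its GFP-high arrays were all above the GFP-negative arrays.

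The A-type channels Kcnd2 (-1.39 ± 0.31) and Kcnd1 (-0.78 ± 0.13) fell, and Kcnd3 did not pass (0.10 ± 0.13, adjusted p = 0.617). Among the silent subunits, which form no channel alone but modify others, Kcnf1 (-1.29 ± 0.23) and Kcnv1 (-0.89 ± 0.19) fell and Kcng3 rose by 0.43 ± 0.13. Kcng3 was at 6.00, 6.04 and 5.73 in GFP-high cells, against 5.58, 5.57 and 5.32 in GFP-negative cells, and its groups came close to each other. That call (adjusted p = 0.0377) was lost without any 1 of the arrays other than GFP-high replicate 3 (0.0587 to 0.118). It was also lost with per-array median centring (0.0615) and quantile normalization (0.0670). No Shaker gene (Kcna1 to Kcna7 and Kcna10, 8 measured) passed. Closest were Kcna5 (-0.75 ± 0.27, adjusted p = 0.0656) and Kcna4 (-0.44 ± 0.16, adjusted p = 0.0694). Without GFP-negative replicate 2, the highest array in Kcna5, its fold change was -0.42 (adjusted p 0.114). Kcna5 was called without GFP-negative replicate 1 (0.0201) and with the replicate number as a block (0.0196). Kcna4 was called without GFP-high replicate 3 (0.0424) or GFP-negative replicate 3 (0.0275). Both were also called as lower with the dimmest 30% of genes left out. Kcna3, a channel of T lymphocytes, was at 5.40, 5.24 and 5.34 in GFP-high cells, against 5.34, 5.19 and 6.55 in GFP-negative cells. Only GFP-negative replicate 3 was high in it, and without that array the fold change was 0.06 in place of -0.37. The remaining voltage-gated pore genes (Kcng1, Kcng2, Kcng4, Kcns1 to Kcns3 and Kcnv2) did not pass either.

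**Figure D2:**
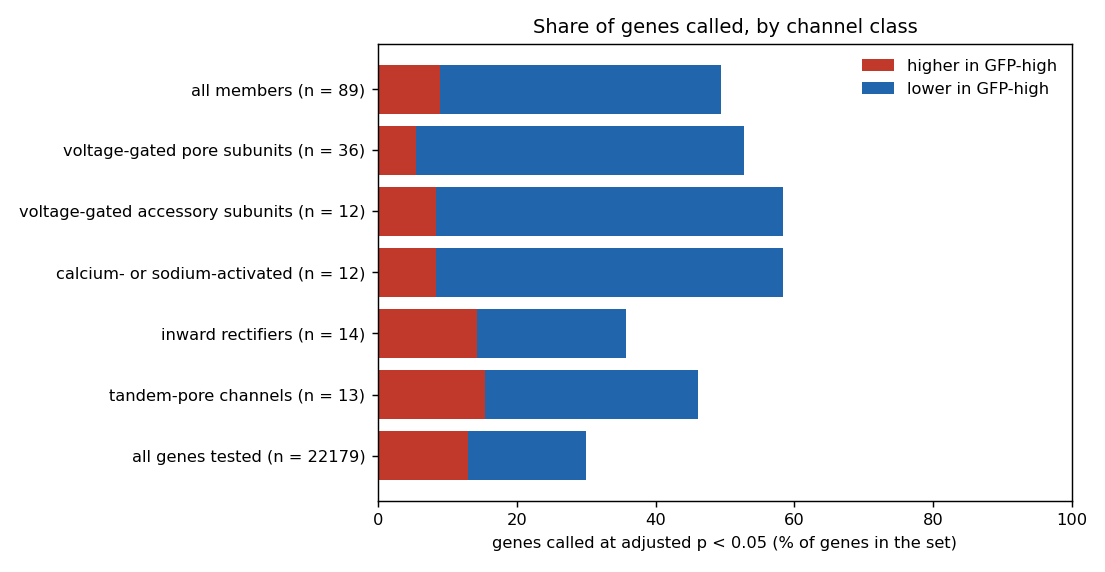
Share of genes called at an adjusted p under 0.05 in each channel class, as percent of the genes in the class, with all 89 members at the top and all 22179 genes at the bottom. Red is the share higher and blue the share lower in GFP-high cells; 40.4% of the members and 17.0% of all genes were lower.

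Accessory subunits bind voltage-gated pores and change their surface level or gating. Of the 12 measured, 6 were lower (50%), 1 higher (8.33%) and 5 did not pass (median log2 fold change -0.39). Among all genes 17.0% were lower and 13.0% higher. All 4 Kcnip genes fell. They encode KChIP proteins, calcium sensors that bind the A-type Kcnd channels. Kcnip2 was at 5.74, 5.45 and 6.34 in GFP-high cells, against 7.90, 8.31 and 7.51 in GFP-negative cells, and fell 4.18-fold (-2.06 ± 0.26, adjusted p = 0.000426). Kcnip3, whose product DREAM is also known as a calcium-dependent transcriptional repressor, was at 7.16, 7.44 and 7.96 in GFP-high cells, against 9.24, 9.61 and 9.28 in GFP-negative cells (-1.86 ± 0.21). The groups were apart in both genes, and GFP-high replicate 3 was again the highest of its group. Kcnip1 fell by 1.55 ± 0.17 and Kcnip4 by 1.06 ± 0.20 on the log2 scale.

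Kcnab3, for a cytoplasmic beta subunit of Shaker channels, was at 4.76, 4.73 and 5.31 in GFP-high cells, against 6.72, 6.27 and 7.01 in GFP-negative cells (-1.73 ± 0.22, adjusted p = 0.000437). A second, dimmer array row for Kcnab3 did not follow (-0.08, adjusted p = 0.735), and the mean of both rows fell by 0.91 on the log2 scale. Kcnab2 fell by 0.72 ± 0.11 and Kcnab1 did not pass. The single-span KCNE proteins gave the 1 rise of this class. Kcne3, which holds the Kcnq1 channel open in secretory epithelia, was at 5.89, 5.85 and 6.24 in GFP-high cells, against 5.07, 5.21 and 4.96 in GFP-negative cells (0.91 ± 0.14, adjusted p = 0.00129). There was no overlap between the groups. Kcne1, which slows the same channel in the heart (-0.06 ± 0.12), and Kcne2 (-0.01 ± 0.11) did not pass, nor did Kcne4 and Kcne1l. The 95% intervals were -0.33 to 0.22 for Kcne1 and -0.27 to 0.25 for Kcne2.

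Channels opened by calcium or sodium inside the cell, with their accessory subunits, numbered 12. Of these, 6 were lower (50%), 1 higher (8.33%) and 5 did not pass (median log2 fold change -0.42). The shares over all genes were 17.0% lower and 13.0% higher. Kcnn3, for the small-conductance channel SK3 that follows the neuronal action potential, was at 5.84, 6.08 and 6.50 in GFP-high cells, against 7.99, 8.20 and 8.51 in GFP-negative cells (-2.09 ± 0.20, adjusted p = 9.52e-05). Kcnn4, for the intermediate-conductance channel of epithelia, red cells and lymphocytes, went the other way. It was at 5.59, 5.83 and 6.43 in GFP-high cells, against 5.01, 5.26 and 4.96 in GFP-negative cells (0.88 ± 0.21, adjusted p = 0.0121). GFP-high replicate 3 was the highest array in Kcnn4, and the groups did not overlap. Kcnn1 and Kcnn2 did not pass. Kcnt1, for the sodium-activated channel Slack, was at 6.04, 6.03 and 6.43 in GFP-high cells, against 7.92, 7.71 and 8.08 in GFP-negative cells (-1.74 ± 0.15, adjusted p = 6.78e-05). Kcnt2 and the sperm channel gene Kcnu1 did not pass.

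Kcnma1 encodes the pore of the BK channel, opened by calcium and voltage together. It was at 4.90, 5.10 and 5.52 in GFP-high cells, against 6.80, 7.16 and 6.66 in GFP-negative cells (-1.70 ± 0.19, adjusted p = 0.000236), with no overlap. A second, dimmer row for Kcnma1 did not pass and pointed the other way (0.27, adjusted p = 0.162), and the mean of both rows fell by 0.72 on the log2 scale (adjusted p = 0.00485). Of its beta subunits, Kcnmb1 fell by 1.55 ± 0.15, Kcnmb2 by 0.77 ± 0.15 and Kcnmb4 by 0.57 ± 0.14, and Kcnmb3 did not pass (0.00 ± 0.16). Kcnmb4 (adjusted p = 0.0141) no longer passed when GFP-negative replicate 1 was left out (0.0544). A second, dimmer row for Kcnmb4 did not pass (-0.32, adjusted p = 0.138). Lrrc26, which is no Kcn gene, encodes a gamma subunit that lets BK channels open at rest in secretory epithelial cells. It was at 7.95, 8.15 and 7.88 in GFP-high cells, against 5.83, 5.64 and 6.01 in GFP-negative cells, a 4.49-fold rise (2.17 ± 0.14, adjusted p = 8.93e-06). Of the other gamma subunit genes, Lrrc55 rose by 0.43 ± 0.12 (adjusted p = 0.0276), while Lrrc38 (0.11 ± 0.15) and Lrrc52 (0.08 ± 0.12) did not pass. The call for Lrrc55 was lost without any 1 array other than GFP-high replicate 3 (0.0581 to 0.0872). That call was also lost after quantile normalization (0.0568), without moderation (0.0571) and with the mean of its rows, at 0.20 (0.343).

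**Figure D3:**
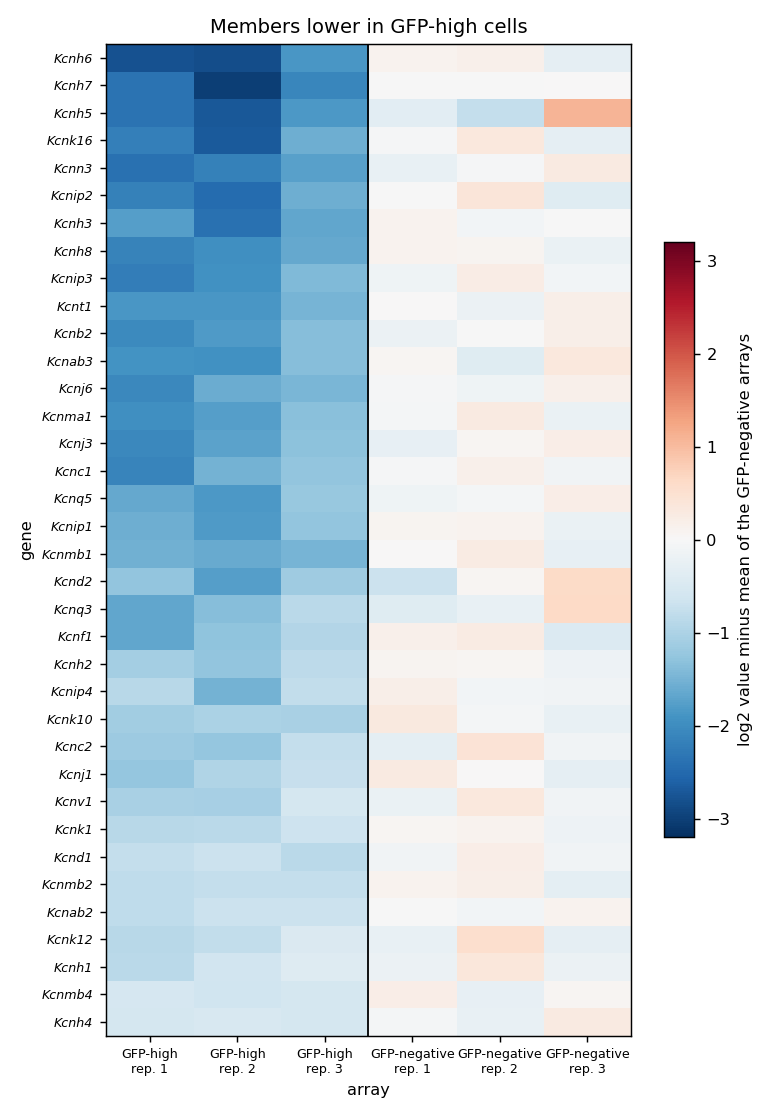
Log2 value minus the mean of the GFP-negative arrays for the 36 potassium channel genes that were lower in GFP-high cells, with genes down the page from the largest to the smallest fall, GFP-high arrays at the left and GFP-negative arrays at the right. Blue is below that mean; GFP-high replicate 3 is the palest GFP-high column, and was the nearest to the GFP-negative mean in 31 of the 36 genes.

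Over the 36 lower members, the median distance to the mean of the GFP-negative arrays was -1.66 in GFP-high replicate 1, -1.60 in replicate 2 and -1.24 in replicate 3. Over the 8 higher members it was 0.94, 0.82 and 1.06. GFP-high replicate 3 was nearest to the GFP-negative mean in 31 of the lower and 3 of the higher members. These genes were chosen by their calls in the same arrays, so the medians describe them and test nothing.

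Inward rectifiers pass potassium more readily into than out of the cell and hold the resting potential. Of the 14 measured Kcnj genes, 3 were lower (21.4%), 2 higher (14.3%) and 9 did not pass (median log2 fold change 0.06). These shares were near those of all genes, 17.0% lower and 13.0% higher. Kcnj15, for the channel Kir4.2 of kidney and other epithelia, had the largest change of any potassium channel gene. It was at 8.23, 8.71 and 8.23 in GFP-high cells, against 4.94, 4.76 and 4.77 in GFP-negative cells, an 11.8-fold rise (3.56 ± 0.15, adjusted p = 1.09e-06). The lowest GFP-high array was more than 3 above the highest GFP-negative array. Kcnj2, for the strong rectifier Kir2.1 of heart and muscle, was at 4.31, 4.85 and 5.01 in GFP-high cells, against 3.57, 3.09 and 3.39 in GFP-negative cells (1.37 ± 0.20, adjusted p = 0.000975). All GFP-high arrays were above the GFP-negative arrays. Kcnj2 was among the dimmest 30% of genes by its mean over all arrays, and so left out of the fit without them.

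Of the 4 genes for the G protein-gated channel of neurons and endocrine cells, 2 fell and 2 did not pass. Kcnj3, for its subunit GIRK1, was at 5.68, 6.03 and 6.42 in GFP-high cells, against 7.47, 7.81 and 7.95 in GFP-negative cells (-1.70 ± 0.20, adjusted p = 0.000324). Kcnj6, for GIRK2, was at 4.65, 5.11 and 5.24 in GFP-high cells, against 6.67, 6.57 and 6.88 in GFP-negative cells (-1.70 ± 0.17, adjusted p = 0.000129). In neither gene did the groups overlap. A second, dimmer row for Kcnj3 did not pass (-0.42, adjusted p = 0.0700), and the mean of both rows fell by 1.06 on the log2 scale. The other subunits, Kcnj5 (-0.04 ± 0.11) and Kcnj9 (0.20 ± 0.17), did not pass. Kcnj1, for the renal secretory channel ROMK, fell by 0.98 ± 0.18. Kcnj10 (0.00 ± 0.20) and its partner Kcnj16 (0.23 ± 0.13), which pair in glia and kidney, did not pass. Neither did the pores of the ATP-sensitive channel, Kcnj8 (0.16 ± 0.12) and Kcnj11 (-0.15 ± 0.13), nor their sulphonylurea receptors Abcc8 (-0.17 ± 0.14) and Abcc9 (0.01 ± 0.12). Kcnj4, Kcnj12 and Kcnj14 did not pass.

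Tandem-pore channels, encoded by Kcnk genes, are open at rest and carry the background potassium leak. Of the 13 measured, 4 were lower (30.8%), 2 higher (15.4%) and 7 did not pass (median log2 fold change 0.02). For all genes the shares were 17.0% lower and 13.0% higher. Kcnk16, for the channel TALK-1 of pancreatic islet cells, was at 6.63, 6.12 and 7.25 in GFP-high cells, against 8.76, 9.15 and 8.51 in GFP-negative cells, and fell 4.42-fold (-2.14 ± 0.28, adjusted p = 0.000477). Kcnk1, for TWIK-1, was at 10.004, 10.034 and 10.226 in GFP-high cells, against 10.946, 10.993 and 10.737 in GFP-negative cells (-0.80 ± 0.12, adjusted p = 0.00125). In both genes the groups were apart. Kcnk10, for TREK-2, fell by 1.05 ± 0.15 and Kcnk12 by 0.71 ± 0.23. The call for Kcnk12 (adjusted p = 0.0468) was lost without replicate 1 or 2 of either group (0.0531 to 0.139), and without GFP-negative replicate 2 its fold change was -0.44. With the replicate number as a block its adjusted p was 0.0524.

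The 2 tandem-pore genes that rose were Kcnk2, for the stretch-sensitive channel TREK-1, and Kcnk5, for the acid-sensitive channel TASK-2 of kidney and other epithelia. Kcnk2 was at 8.05, 7.89 and 7.68 in GFP-high cells, against 7.18, 7.18 and 6.71 in GFP-negative cells (0.85 ± 0.16, adjusted p = 0.00417). Kcnk5 was at 5.33, 5.09 and 5.37 in GFP-high cells, against 4.12, 4.44 and 4.66 in GFP-negative cells (0.85 ± 0.16, adjusted p = 0.00363). In both genes the GFP-high arrays were all above the GFP-negative arrays. Kcnk6 (0.30 ± 0.14, adjusted p = 0.158) and Kcnk4, Kcnk7, Kcnk9, Kcnk13, Kcnk15 and Kcnk18 did not pass.

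**Figure D4:**
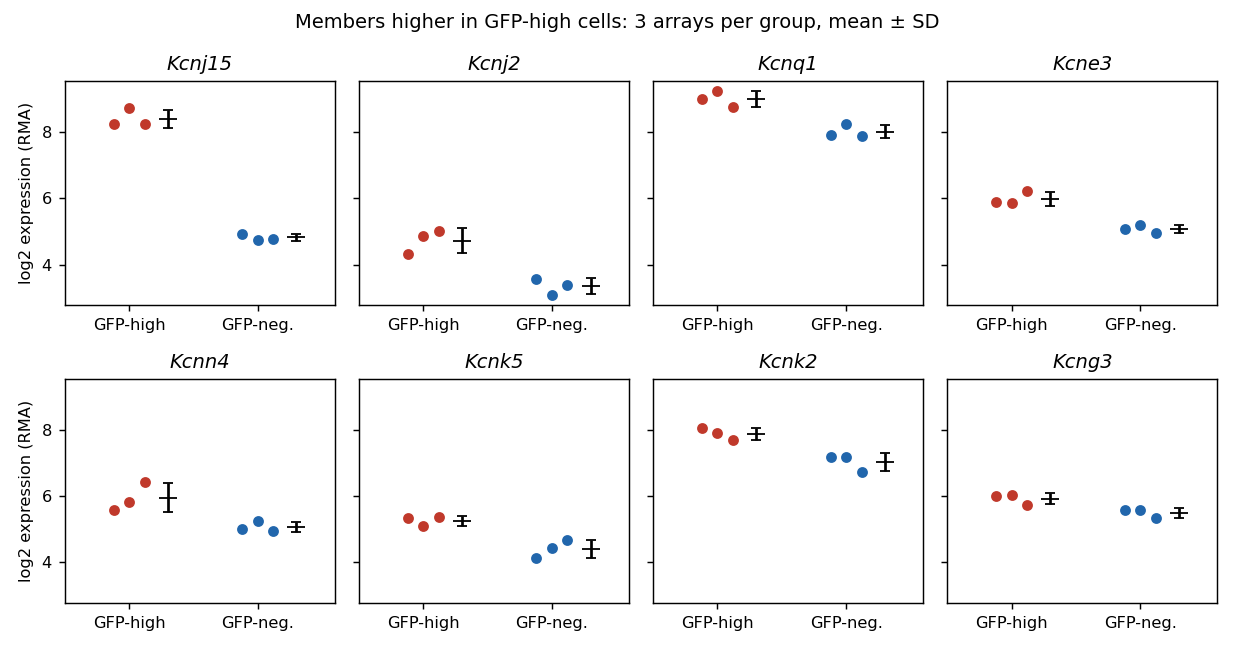
Log2 expression of the 8 potassium channel genes that were higher in GFP-high cells, 1 panel per gene, with the 3 GFP-high arrays (red) left of the 3 GFP-negative arrays (blue) and the mean ± SD beside each group. Kcnj15 has the widest gap, with means of 8.39 ± 0.28 in GFP-high cells against 4.82 ± 0.10 in GFP-negative ones, and Kcng3 the narrowest.

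The 2 RNA genes did not pass. Kcnq1ot1, an imprinted antisense transcript from within Kcnq1, was at 6.15, 6.64 and 6.19 in GFP-high cells, against 6.38, 6.43 and 6.78 in GFP-negative cells (-0.20 ± 0.17, adjusted p = 0.431), with overlapping groups. Kcnd3os, antisense to Kcnd3, had a fold change of 0.10 ± 0.14. Over all 45 members that did not pass, log2 fold changes ran from -0.75 to 0.33 and single array values from 3.08 to 8.35. The table gives no detection calls, so which of these were expressed is not known.

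Genes that work with potassium channels but carry another symbol were read from lists, and are set against 13.0% higher and 17.0% lower over all genes. Of 20 measured channel partners, 3 were higher (15%), 8 lower (40%) and 9 did not pass (median log2 fold change -0.21). Nedd4l, a ubiquitin ligase that removes sodium and KCNQ channels from the membrane, rose by 2.89 ± 0.17 and Lrrc26 by 2.17 ± 0.14. Dpp6 (-1.72 ± 0.22) and Dpp10 (-1.56 ± 0.23), the transmembrane partners of the A-type Kcnd channels, fell, as did Kcnd2, Kcnd1 and the 4 Kcnip genes. Of 12 measured HCN and other cation channel genes, not all of them channels of the resting potential, 1 was higher (8.33%), 7 lower (58.3%) and 4 did not pass (median -0.72). The sodium leak channel gene Nalcn fell (-2.12 ± 0.26), as did its partners Unc79 (-2.32 ± 0.21) and Unc80 (-2.10 ± 0.17) and the pacemaker channel gene Hcn4 (-1.48 ± 0.24). Of 13 measured subunits of the sodium-potassium and proton-potassium pumps, which build the gradient, 1 was higher (7.69%), 3 lower (23.1%) and 9 did not pass (median -0.04), shares near those of all genes. The pump subunit Atp1b1 rose by 1.19 ± 0.15, while the neural subunit Atp1b2 (-1.10 ± 0.10) and the regulators Fxyd6 (-1.69 ± 0.19) and Fxyd5 (-1.25 ± 0.29) fell.

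**Figure D5:**
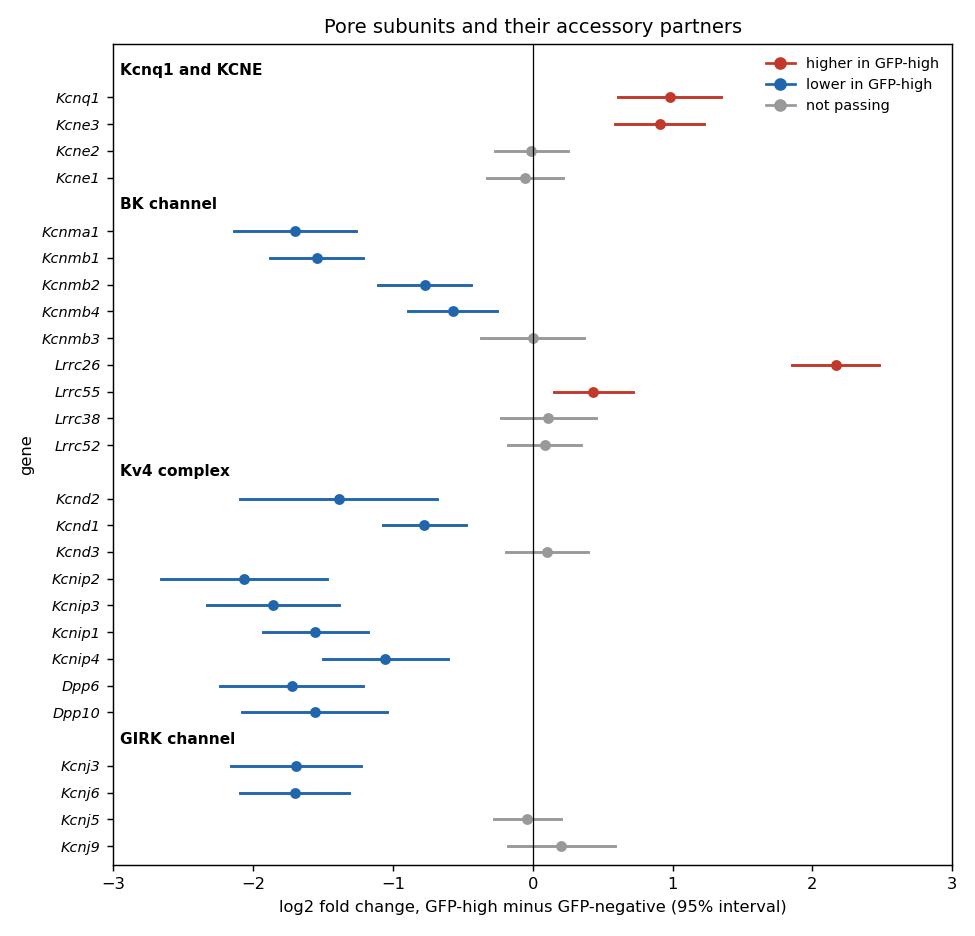
Log2 fold change (GFP-high minus GFP-negative) with its 95% interval for pore subunits and their partners, grouped as the Kcnq1 channel, the BK channel, the A-type Kv4 channel and the GIRK channel. Red genes were higher, blue genes lower and grey genes did not pass; Kcnq1 and Kcne3 are red, at 0.98 and 0.91, and Lrrc26 and Lrrc55 are the red genes of the BK group, at 2.17 and 0.43.

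Some members lie next to each other in the genome. In the RefSeq gene order of GRCm38.p6, 10 pairs of members are direct neighbours among protein-coding genes. In 2 of these pairs the genes changed in opposite directions. On chromosome 16, Kcnj15 rose by 3.56 and its neighbour Kcnj6 fell by 1.70. On chromosome 14, Kcnk5 rose by 0.85 and its neighbour Kcnk16 fell by 2.14 on the log2 scale. In 1 pair, Kcnip1 and Kcnmb1 on chromosome 11, both fell (-1.55 each). These genes overlap on opposite strands, Kcnip1 on the minus and Kcnmb1 on the plus strand. The labels do not say whether the probes tell them apart. The neighbours Kcnj2 and Kcnj16, also on chromosome 11, stood at 1.37 and 0.23, of which Kcnj2 was called.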

How the data were processed

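Total RNA of the 6 sorted samples was measured on the Mouse Gene 2.0 ST platform of Affymetrix. The deposited log2 values were made by the authors with RMA, per the submitters' processing notes, which name no version. Array medians lay between 5.30 and 5.43, as log2 values do. Since RMA makes the arrays' distributions alike, it hides a change common to most genes. Of 41344 rows, 23520 name 1 gene in the platform annotation. A gene took its row with the highest mean, and 7 members had a second row. The 4 rows that name a Kcn gene with another gene were not used. By log2 fold change they were Kcnj13 with Gigyf2 (2.18), Kcnk3 with Gm9899 (-1.71 and -0.86) and Kcnmb4 with Kcnmb4os1 (0.09). So Kcnj13 and Kcnk3 are missing from the counts of their classes. All 89 members matched the RefSeq gene table.

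Groups were compared with limma (R 4.3.3, limma 3.58.1; lmFit and eBayes, 4.50 prior and 4 residual degrees of freedom), adjusted by Benjamini-Hochberg over all 22179 genes. No set test was run, and a permutation of 3 against 3 arrays cannot give a p below 0.10. The number of arrays limits the precision. The fit was tested on simulated data. Figures used matplotlib 3.10.9. Values in every array are given for the 15 largest falls and all rises of at least 1, the 3 members of highest mean, the largest change of each class (Kcnq1ot1 among the RNA genes) and, added after the values were seen, the other higher members and Kcna3. Other called members are named with their fold change, members that did not pass by name or with a value, partners in known complexes side by side, and up to 4 genes of each partner list. Lrrc55, Lrrc38 and Lrrc52 were added after their values were seen. Alternatives were median centring, quantile normalization, leaving out the dimmest 30% of genes, the mean of all rows, trend and robust moderation, array weights, a replicate block, leaving out each array, no moderation and a minimum log2 fold change of 1. Members, lists and motifs were chosen with earlier results of these data known. The labels do not say whether same-numbered arrays share a pool. Deviations from the group means correlated at 0.114, -0.0256 and -0.0016 for same-numbered arrays. For the other pairs they ran from -0.0732 to 0.0632. With 3 arrays per group these values cannot show or exclude pairing.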

Additional observations from a re-analysis of the deposited data

How the results depend on the processing

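The number of potassium channel genes called lower (36) ran from 33 to 36 when each array was left out in turn. The number called higher (8) ran from 7 to 8. Over all 22179 genes the number lower (3773) ran from 2940 to 3382, and the number higher (2888) from 2374 to 2734. Of the 44 called, 39 passed without each of the 6 arrays in turn, and Kcng3, Kcnh1, Kcnh4, Kcnk12 and Kcnmb4 did not. With the replicate number as a block 36 were lower and 8 higher, against 3443 and 2729 of all 22179 genes. Without moderation 24 were lower (27.0%) and 6 higher (6.74%), against 2813 and 2241 of all 22179 genes. With a minimum absolute log2 fold change of 1, 26 were lower and 2 higher, against 1335 and 1249 of all genes. Fewer calls follow from the construction of that rule. No called member changed sign under any alternative run. Genes near 0 that did not pass changed sign under some, and the cause was not tested. With array weights, Kcnj10 had a log2 fold change of 0.021 and Abcc9 of -0.0205, and after quantile normalization Abcc9 had -0.0449. With 1 array left out, the log2 fold change ran from -0.16 to 0.23 for Kcnj10, -0.0526 to 0.0886 for Abcc9, -0.62 to 0.0611 for Kcna3, -0.0080 to 0.18 for Kcnd3, -0.0082 to 0.23 for Kcnd3os, -0.11 to 0.0124 for Kcne1, -0.0823 to 0.0382 for Kcne2, -0.0356 to 0.236 for Lrrc38 and -0.15 to 0.16 for Kcnmb3. Of the partner list genes named above as called, the pump regulator Fxyd5 (adjusted p = 0.110) and Lrrc55 (0.0571) lost their calls without moderation. Signal close to background limits what can be said of dim genes.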
